A study of Mus musculus with 46 samples.

Results

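The proteasome genes described here were all entries of the deposited RNA count table whose symbol begins with Psma, Psmb, Psmc, Psmd, Psme, Psmf or Psmg followed by a digit. There were 50 such genes among 20999, and 49 of them passed the filter on low counts, which kept 12230 genes. By role, 14 encode the constitutive 20S core (7 outer ring, 4 non-catalytic inner ring and 3 catalytic subunits) and 17 encode the 19S regulatory particle (6 ATPases and 11 non-ATPase subunits), which makes 31 constitutive subunits. Another 5 encode the immunoproteasome set (Psmb8, Psmb9, Psmb10, Psme1 and Psme2), 3 encode other regulators of the core, 4 are chaperones of core assembly and 3 are chaperones of the 19S base. The remaining 4 match the symbol rule without belonging to the general proteasome: Psma8 and Psmb11 are known as testis and thymus forms, Psme2b is a copy of Psme2, and Psmc3ip is a recombination factor named after a subunit it was found to bind.

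The samples were microglia, the resident macrophages of the brain, sorted from male C57BL/6 mice, and the study asked how dividing microglia compare across settings. RNA was sequenced in 5 groups of 2 libraries, which the labels call independent biological replicates. Adult microglia came from untreated wild-type mice of 90 days, carry the label Ki67-negative and had no reporter. Microglia of postnatal day 8 (PND8) came from untreated Ki67-rfp mice of 8 days, in which a red fluorescent protein reports Ki67, a protein of cycling cells, and were sorted as Ki67-negative or Ki67-positive. Repopulation microglia came from Ki67-rfp mice of 75 days that ate PLX5622, an inhibitor of the microglial survival receptor CSF1R that depletes microglia, for 17 days from day 55 and then recovered for 3 days, and they were sorted by the same reporter. The reporter genotype, the age and the diet therefore all differ between the adult group and the repopulation groups, and the labels do not separate microglia that survived the drug from those born after it. Peak lists covered 20 further libraries. H3K27ac, an acetylation of histones at promoters and enhancers in use, had 12 libraries: 2 each of adult (60 and 65 days), PND8 Ki67-negative, PND8 Ki67-positive, Ki67-negative and Ki67-positive microglia of mice of 90 days after 4 weeks of cuprizone, a diet that strips myelin, and Ki67-positive repopulation microglia of 90 days that began PLX5622 on day 70. H3K4me3, a mark of promoters, had 2 adult libraries of 75 days. Rpb2, a subunit of RNA polymerase II, had 2 adult libraries (60 and 65 days) and 1 of PND8 Ki67-positive cells. Open chromatin by ATAC-seq had 1 library each of adult (80 days), PND8 Ki67-positive and repopulation Ki67-positive cells, the last of 75 days with PLX5622 from day 55. The titles of both Ki67-positive ATAC-seq libraries name the Ki67-rfp line, while their genotype label is wild type. For the immunoprecipitations the cells were fixed first and sorted after staining for Ki67 with an antibody, and the labels give a wild-type genotype. The file headers of the adult H3K27ac and Rpb2 lists name a vehicle where the labels give no treatment, and that of 1 repopulation H3K27ac list gives a younger age than its label.

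The proteasome is the main protease of the cytosol and nucleus for proteins tagged with ubiquitin. Its barrel-shaped 20S core has outer rings of alpha subunits that gate the entrance and inner rings of beta subunits, of which Psmb5, Psmb6 and Psmb7 carry the cutting sites, while the 19S particle binds ubiquitin, removes it and unfolds the substrate with a ring of ATPases. Interferon induces Psmb8, Psmb9 and Psmb10, which take the places of Psmb5, Psmb6 and Psmb7 in newly built cores, together with Psme1 and Psme2, the subunits of the 11S activator PA28. Cores of this kind are known for making peptides that fit MHC class I molecules, and macrophages and microglia are known to hold them at rest.

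The exchange partners differ in the letters before their start sites, and these stretches are shown first. Whether the letters bear on the RNA of these genes was not tested. The sequences are from the RefSeq promoter table on GRCm38.p6, written 5′ to 3′ on the strand of the gene and ending at the base before the RefSeq start. Capitals mark matches to the motifs searched. In Psmb8 (chr17:34198065-34198194, plus strand) they mark a gamma-activated site (TTCNNNGAA), between 97 and 89 bases before the start. In Psmb5 (chr14:54617996-54618125, minus strand) they mark the antioxidant response element core (TGACNNNGC) between 47 and 39 bases before the start.
Psmb8: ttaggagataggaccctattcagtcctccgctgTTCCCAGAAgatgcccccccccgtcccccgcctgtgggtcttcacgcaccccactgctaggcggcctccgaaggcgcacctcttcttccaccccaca
Psmb5: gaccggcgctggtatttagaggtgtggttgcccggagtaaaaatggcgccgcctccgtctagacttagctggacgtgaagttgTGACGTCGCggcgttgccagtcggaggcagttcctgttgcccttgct
Psmb9 (chr17:34187331-34187555, minus strand) and Tap1, a subunit of the peptide transporter, face apart with starts 226 bp from each other, so the stretch printed for Psmb9 is the whole gap between them, and its capitals mark an NF-Y box (CCAAT) that lies on the opposite strand. In Psmb6 (chr11:70525227-70525356, plus strand) the capitals mark an antioxidant response element core at the last bases before the start. In Psmb10 (chr8:105938393-105938522, minus strand) no motif matched, and the partner Psmb7 had no entry in the table. The adult open chromatin peak at Psmb10 was centred 250 bp past this start, inside the gene. Its adult H3K27ac regions were centred 661 and 698 bp past it. Whether this start is the one microglia use was not tested.
Psmb9: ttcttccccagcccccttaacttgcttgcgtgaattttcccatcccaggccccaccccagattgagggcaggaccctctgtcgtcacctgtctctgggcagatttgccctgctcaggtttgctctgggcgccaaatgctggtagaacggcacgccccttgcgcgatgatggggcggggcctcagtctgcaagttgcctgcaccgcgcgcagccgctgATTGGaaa
Psmb6: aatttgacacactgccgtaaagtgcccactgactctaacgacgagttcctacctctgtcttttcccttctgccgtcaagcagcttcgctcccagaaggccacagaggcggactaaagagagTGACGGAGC
Psmb10: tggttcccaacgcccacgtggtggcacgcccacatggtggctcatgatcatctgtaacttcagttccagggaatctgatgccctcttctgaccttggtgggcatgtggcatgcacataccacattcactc
Constitutive subunits shared other letters. Psma4 (chr9:54950729-54950858, plus strand), of the outer ring, and Psmd14 (chr2:61711564-61711693, plus strand), the deubiquitinating enzyme of the 19S lid, each hold an NRF1 site (GCGCA and GCGC parted by 1 free base), which in Psmd14 lies on the opposite strand. Psma6 (chr12:55398685-55398824, plus strand), of the outer ring, and Psmd2 (chr16:20651552-20651651, plus strand), a scaffold of the 19S base, each hold the ETS core (CCGGAA, or TTCCGG where it lies on the other strand) at 2 places.
Psma4: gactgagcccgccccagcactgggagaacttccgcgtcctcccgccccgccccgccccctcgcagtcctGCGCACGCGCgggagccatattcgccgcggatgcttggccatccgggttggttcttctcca
Psmd14: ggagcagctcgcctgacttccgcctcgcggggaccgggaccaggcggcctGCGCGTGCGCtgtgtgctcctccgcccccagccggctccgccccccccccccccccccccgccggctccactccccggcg
Psma6: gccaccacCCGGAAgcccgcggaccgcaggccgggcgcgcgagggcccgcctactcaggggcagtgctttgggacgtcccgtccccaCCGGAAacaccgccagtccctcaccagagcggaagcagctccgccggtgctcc
Psmd2: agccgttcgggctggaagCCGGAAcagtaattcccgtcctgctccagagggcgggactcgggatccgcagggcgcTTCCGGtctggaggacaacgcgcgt

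Of the 50 genes, 42 had a promoter in the table, and the 8 without one were Psma8, Psmb1, Psmb2, Psmb7, Psmc3, Psmd3, Psmd7 and Psmg2. Windows ran from 250 bases before to 50 bases after the start, on both strands, and were read next to all 32851 promoters of 300 bases. The ETS core lay in 14 of 25 constitutive promoters and in 0 of 5 immunoproteasome promoters, against 14.9% of all promoters. The NRF1 site lay in 6 of 25 and 0 of 5, against 4.6% of all. The interferon-stimulated response element core (GAAA and GAAA parted by 2 free bases) lay in 2 of 25 constitutive promoters and in 1 of 5 immunoproteasome promoters, that of Psme1, against 3.44% of all, and the gamma-activated site lay in 1 of 25 and 1 of 5, against 8.3%. The antioxidant response element core lay in 4 of 25 and 0 of 5, against 12.4%. The NF-Y box lay in 9 of 25 and 1 of 5 (37.4% of all), the TATA box (TATAAA) in 3 of 25 and 1 of 5 (13.6%), and the core of the cell cycle homology region (TTTGAA) in 2 of 25 and 0 of 5 (17.9%). The free bases of a gamma-activated site (TTCNNNGAA) can complete an ETS core or a cell cycle core, so these matches can overlap. The number of CG pairs per promoter had a median of 20 over the 25 constitutive promoters (10 to 41) and of 12 over the 5 immunoproteasome promoters (3 to 19), with 7 over all promoters. The 3 was that of Psmb10, with the limit on its start given above, which also holds for its motif counts. A match describes letters only and shows neither binding nor regulation.

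RNA libraries held between 6865903 and 10287876 counts. The summed level of 8 microglia markers lay between 6627 and 8673 CPM (counts-per-million, on TMM-scaled library sizes) in all 10 libraries, with no marker at 0. Markers of other cells moved with the groups. The sum of 5 border macrophage markers was 61.4 to 74.9 CPM in adult, 583 to 774 in PND8 Ki67-negative, 835 to 853 in PND8 Ki67-positive and 25.9 to 42.2 CPM in repopulation libraries, where Lyve1 was at 0, and most of it was Mrc1. From adult to PND8 Ki67-negative libraries, Lyve1 went from 18 and 23 to 103 and 295 counts. F13a1 went from 39 and 72 to 137 and 243 counts and Cbr2 from 9 and 19 to 58 and 58. Cd163 overlapped, with 35 and 68 counts in adult and 53 and 99 in PND8 Ki67-negative libraries. In PND8 Ki67-positive libraries Lyve1 had 34 and 50 counts, Cbr2 53 and 33 and F13a1 74 and 74. Cd163 had 21 and 30 counts there, below adult, so this marker went against the sum. Whether border macrophages were among the sorted cells was not tested. The sum of 6 monocyte or neutrophil markers was 61.6 to 211 CPM in adult libraries and at most 9.26 elsewhere. The sum of 5 astrocyte markers, nearly all of it Slc1a3, was 236 and 245 CPM in adult, 82.5 and 428 in PND8 Ki67-negative, 52.3 and 371 in PND8 Ki67-positive and 407 to 564 CPM in repopulation libraries, so that replicate 1 of each PND8 group was below adult and replicate 2 above. The sum of 5 endothelial markers was lower in Ki67-positive (37.0 to 40.3 CPM) than in Ki67-negative and adult libraries (56.0 to 79.3). The sum of 6 lymphocyte markers never passed 1.10 CPM. File headers also carry a number code, and nothing in the labels explains it. Both adult libraries shared 1 code that no other RNA library had, so the adult group and the code cannot be told apart, whereas replicate 2 of both PND8 groups and replicate 1 of both repopulation groups shared a code. Because the RNA came from bulk cells, fewer cells of a type and less RNA per cell cannot be told apart in any comparison.

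Mki67 followed the sort. It stood at 13.4 and 10.998 CPM in the adult libraries, at 242 and 282 in PND8 Ki67-negative, at 920 and 1107 in PND8 Ki67-positive, at 336 and 463 in repopulation Ki67-negative and at 930 and 1087 CPM in repopulation Ki67-positive libraries. The Ki67-negative libraries of PND8 and repopulation thus lay far above adult and below their Ki67-positive counterparts without overlap, and the log2 difference between sorts was 1.95 at PND8 (edgeR adjusted p = 9.17e-06) and 1.34 in repopulation (adjusted p = 0.000198).

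At PND8 the general proteasome stood above adult, in the Ki67-negative as well as the Ki67-positive cells, while no immunoproteasome gene passed the test in either direction. In Ki67-negative cells 26 of the 49 tested members passed edgeR's quasi-likelihood test at an adjusted p under 0.05, 25 higher and 1 lower, where 46.8% of all genes were called, 25.4% higher and 21.4% lower. In Ki67-positive cells it was again 25 higher and 1 lower, with 49.5% of all genes called, 25.1% higher and 24.3% lower. Both comparisons use the same adult libraries. The constitutive subunits made up most of the rise: 22 of 31 were higher in Ki67-negative and 23 of 31 in Ki67-positive cells, none was lower, and their median log2 difference was 0.44 and 0.61, against 0.03 and 0.00 over all genes.

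Within the 20S core 11 of 14 genes rose in PND8 Ki67-negative and 12 of 14 in PND8 Ki67-positive cells. All 4 non-catalytic beta subunits rose in both, with log2 differences between 0.49 and 0.89. The largest was that of Psmb4. This gene stood at 47.9 and 49.9 CPM in adult and at 86.6 and 95.1 CPM in PND8 Ki67-positive libraries, a log2 difference of 0.89 (edgeR adjusted p = 0.00013). Of the 7 outer ring genes, 5 rose in both sorts, and Psma3 (-0.33 and -0.11) and Psma6 (0.12 and 0.20) did not pass. In the 19S particle 11 of 17 rose in each sort. Among them was Psmd14, which cuts ubiquitin from the substrate before it enters the core. Psmd14 stood at 32.4 and 35.7 CPM in adult, at 51.0 and 64.0 in PND8 Ki67-negative and at 61.6 and 72.6 CPM in PND8 Ki67-positive libraries, with no overlap between PND8 and adult. Its log2 differences from adult were 0.76 (SE 0.15, edgeR adjusted p = 0.00131) and 0.98 (SE 0.15, adjusted p = 0.00016).

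The catalytic subunits show the same order. Psmb5, the chymotrypsin-like subunit (chr14:54614120-54617995, minus strand of mm10), stood at 17.9 and 19.4 CPM in adult, 19.7 and 26.97 in PND8 Ki67-negative, 29.6 and 30.7 in PND8 Ki67-positive, 18.9 and 23.0 in repopulation Ki67-negative and 23.2 and 26.5 CPM in repopulation Ki67-positive libraries. Psmb6, the caspase-like subunit (chr11:70525357-70527858, plus strand), stood at 43.1 and 43.3 CPM in adult, 54.7 and 74.8 in PND8 Ki67-negative, 72.0 and 75.9 in PND8 Ki67-positive, 45.1 and 56.5 in repopulation Ki67-negative and 60.4 and 69.7 CPM in repopulation Ki67-positive libraries. Psmb7, the trypsin-like subunit (chr2:38588046-38643906, minus strand), stood at 39.9 and 41.9 CPM in adult, 59.3 and 67.8 in PND8 Ki67-negative, 71.8 and 74.9 in PND8 Ki67-positive, 50.6 and 62.0 in repopulation Ki67-negative and 63.2 and 77.1 CPM in repopulation Ki67-positive libraries. For each of these genes both adult libraries were the lowest of all, apart from repopulation Ki67-negative replicate 1 for Psmb5, which fell between them. Psmb6 and Psmb7 rose in both PND8 sorts (log2 0.59 and 0.78 for Psmb6, edgeR adjusted p = 0.00635 and 0.000897, and 0.64 and 0.84 for Psmb7, adjusted p = 0.00162 and 0.000165). Psmb5 rose in Ki67-positive cells (0.69, SE 0.18, adjusted p = 0.00548) and had 0.33 (adjusted p = 0.149) in Ki67-negative cells. Without PND8 Ki67-negative replicate 2, Psmb6 in that sort had 0.32 (adjusted p = 0.107).

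**Figure D1:**
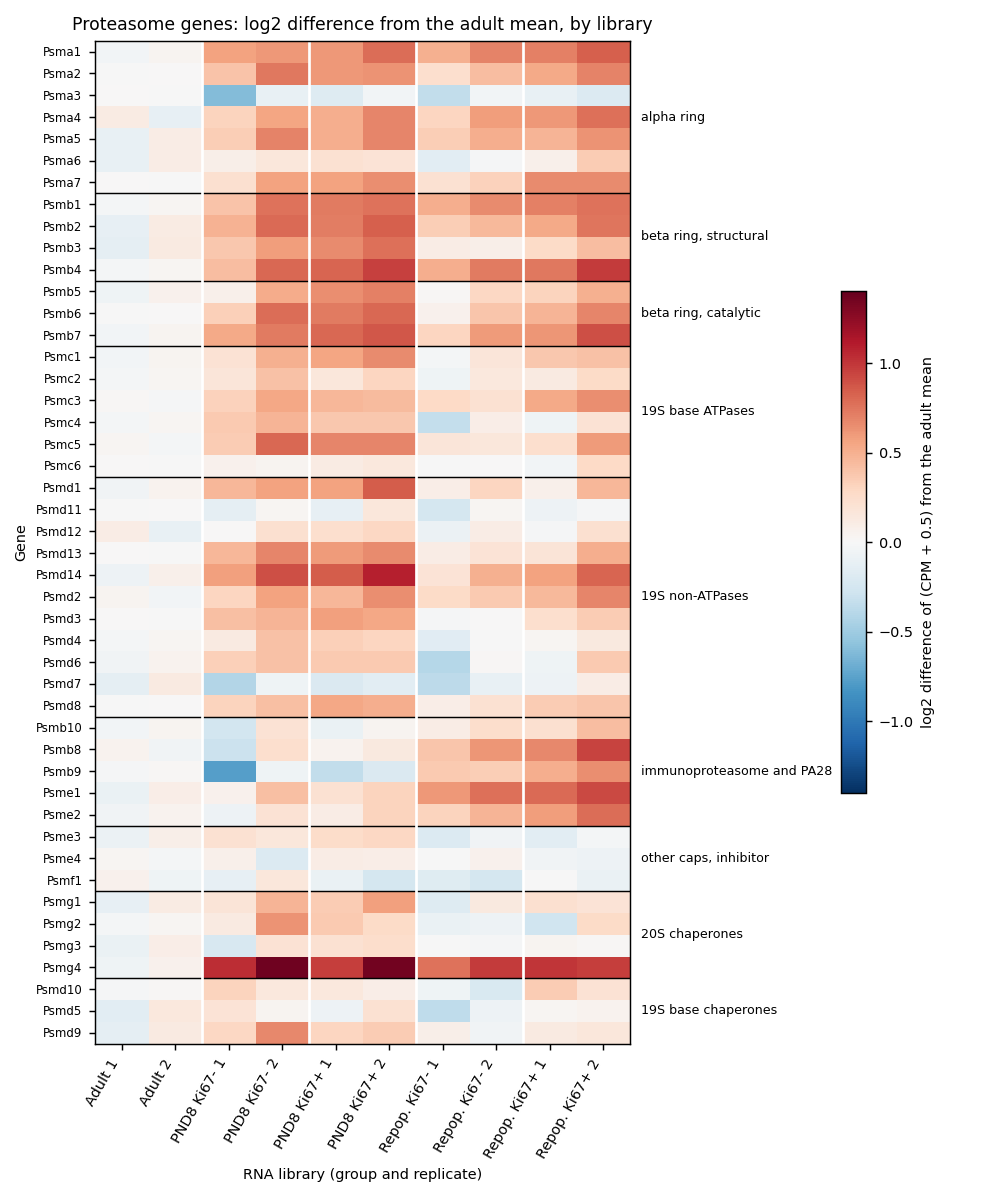
Log2 difference of each of 46 proteasome genes from the mean of the 2 adult libraries, in each of the 10 RNA libraries (columns, by group and replicate), with genes ordered by role in rows and Psma8, Psmb11, Psme2b and Psmc3ip not shown. The 20S and 19S rows are mostly above adult in the 4 PND8 libraries, whereas the Psmb8, Psmb9 and Psme1 rows are higher in the 4 repopulation libraries than in all others.

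After repopulation, most immunoproteasome genes stood above adult. In Ki67-negative repopulation cells 13 of 49 members were higher than adult and 0 lower (39.2% of all genes called, 21.5% higher and 17.6% lower), and in Ki67-positive cells 23 were higher and 0 lower (44.9% called, 23.9% higher and 21% lower). Of the 5 immunoproteasome genes, 3 rose in Ki67-negative and 4 in Ki67-positive cells, with medians of 0.39 and 0.69 against -0.01 over all genes in both. Of the 31 constitutive subunits, 8 rose in Ki67-negative and 18 in Ki67-positive cells, with medians of 0.16 and 0.40. In Ki67-negative cells the shares of all members and of constitutive subunits called higher were near that of all genes. Nothing about the members is read from those counts. The 8 in Ki67-negative cells were 7 of the 14 core genes and 1 of the 17 genes of the 19S particle, the scaffold Psmd2 (0.32), and the medians were 0.37 for the core and 0.04 for the 19S particle. In Ki67-positive cells 10 of 14 core and 8 of 17 genes of the 19S particle rose, with medians of 0.63 and 0.28. Of the catalytic subunits, Psmb7 rose in both sorts (0.45, edgeR adjusted p = 0.0168, and 0.78, adjusted p = 0.000393), Psmb6 in Ki67-positive cells (0.59, adjusted p = 0.00692, after 0.23 in Ki67-negative cells) and Psmb5 in neither (0.16 and 0.41, adjusted p = 0.521 and 0.0803). Whether core and 19S genes differ from each other was not tested. The count in Ki67-negative cells leaned on single libraries: it was 5 without adult replicate 1, 5 without adult replicate 2 and 4 without repopulation Ki67-negative replicate 2, each of which also ended the call of Psmb7 (0.42, 0.49 and 0.31). The call of Psmb6 was lost without repopulation Ki67-positive replicate 2 (0.48, adjusted p = 0.066).

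The immunoproteasome genes were as follows in single libraries. Psmb8, the inducible partner of Psmb5 (chr17:34198195-34201454, plus strand), stood at 65.1 and 60.4 CPM in adult, 50.6 and 73.7 in PND8 Ki67-negative, 64.7 and 69.2 in PND8 Ki67-positive, 82.0 and 96.3 in repopulation Ki67-negative and 100.2 and 120.9 CPM in repopulation Ki67-positive libraries. Psmb9, the partner of Psmb6 (chr17:34182099-34187330, minus strand), stood at 37.0 and 37.9 CPM in adult, 21.8 and 36.0 in PND8 Ki67-negative, 29.3 and 32.5 in PND8 Ki67-positive, 48.4 and 47.8 in repopulation Ki67-negative and 53.4 and 59.0 CPM in repopulation Ki67-positive libraries. For both genes all 4 repopulation libraries were above all 6 others. For Psmb8 the PND8 libraries lay on both sides of adult, and for Psmb9 all 4 lay below adult.

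Psmb10, the partner of Psmb7 (chr8:105935728-105938392, minus strand), stood at 55.5 and 58.5 CPM in adult, 47.5 and 65.6 in PND8 Ki67-negative, 53.3 and 58.4 in PND8 Ki67-positive, 61.1 and 67.7 in repopulation Ki67-negative and 66.7 and 77.1 CPM in repopulation Ki67-positive libraries. Psme1, a subunit of the activator (chr14:55578494-55581527, plus strand), stood at 66.2 and 75.2 CPM in adult, 73.4 and 94.4 in PND8 Ki67-negative, 81.9 and 87.8 in PND8 Ki67-positive, 107.3 and 120.8 in repopulation Ki67-negative and 122.1 and 133.9 CPM in repopulation Ki67-positive libraries. Psme2, the other subunit of the activator (chr14:55587440-55591021, minus strand), stood at 53.7 and 57.2 CPM in adult, 52.8 and 63.8 in PND8 Ki67-negative, 59.7 and 68.8 in PND8 Ki67-positive, 68.7 and 77.1 in repopulation Ki67-negative and 83.2 and 95.4 CPM in repopulation Ki67-positive libraries. For Psme1 every repopulation library was above every other library, whereas for Psmb10 and Psme2 the lowest repopulation library overlapped with the highest at PND8.

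Against adult, Psme1 rose by 0.69 (SE 0.12, edgeR adjusted p = 0.000748) in Ki67-negative and by 0.86 (SE 0.12, adjusted p = 9.83e-05) in Ki67-positive repopulation cells. Psmb8 rose by 0.50 (SE 0.16, adjusted p = 0.0215) and by 0.81 (SE 0.16, adjusted p = 0.00088), and Psme2 by 0.39 (adjusted p = 0.0251) and by 0.69 (adjusted p = 0.000624). Psmb9 had 0.36 (SE 0.18, adjusted p = 0.122) in Ki67-negative cells and rose by 0.58 (SE 0.18, adjusted p = 0.0154) in Ki67-positive cells. Psmb10 passed in neither, with 0.17 and 0.33 (adjusted p = 0.369 and 0.0733). At PND8 the adjusted p of these 5 genes ran from 0.115 for Psme1 to 0.979 for Psmb10 in Ki67-negative and from 0.0953 for Psme1 to 0.877 for Psmb10 in Ki67-positive cells. In Ki67-negative repopulation cells the calls of Psmb8 and Psme2 were lost without adult replicate 1 (0.56 and 0.35, adjusted p = 0.0682 and 0.149), without adult replicate 2 (0.45 and 0.44, adjusted p = 0.131 and 0.074) and without repopulation Ki67-negative replicate 2 (0.39 and 0.31, adjusted p = 0.153 and 0.159). The call of Psmb9 in Ki67-positive cells was lost in the same way (0.51 to 0.60, adjusted p = 0.0666 to 0.0944).

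**Figure D2:**
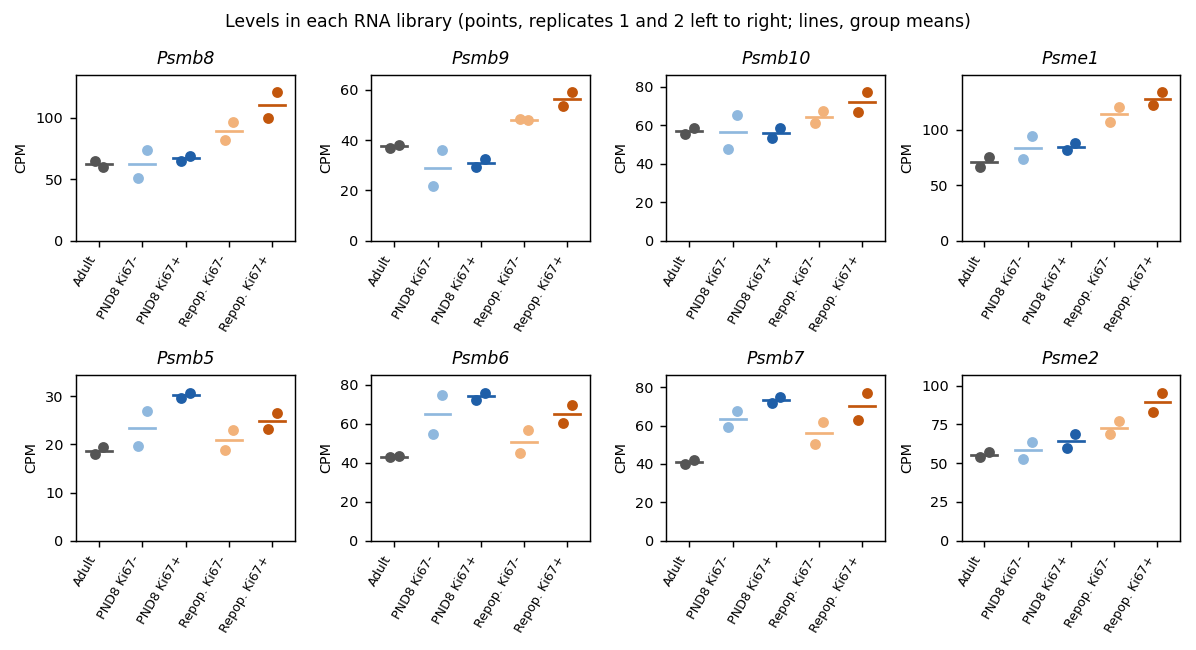
CPM of the 5 immunoproteasome genes and the 3 catalytic subunits they replace or accompany, by group, with 1 point per library. Psmb8, Psmb9 and Psme1 are higher in all 4 repopulation libraries than in the other 6, while Psmb6 and Psmb7 are lowest in the 2 adult libraries.

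In the direct comparison of repopulation with PND8, 3 of the 5 immunoproteasome genes were called higher in repopulation in Ki67-negative and 4 of 5 in Ki67-positive cells, while 8 and 2 of the 31 constitutive subunits were called lower. Over the 49 members, 4 were higher and 10 lower in Ki67-negative cells (36.6% of all genes called, 18% higher and 18.6% lower), and 5 were higher and 3 lower in Ki67-positive cells (30.9% called, 16.7% higher and 14.2% lower). The share of all members called was thus below that of all genes in both sorts, as was the share of constitutive subunits called lower in Ki67-positive cells, and nothing about the members is read from these counts. The adult libraries are in neither group but enter the spread estimated by the fit. With only the groups compared in the fit, 4 members were higher and 3 lower in Ki67-negative cells (27.1% of all genes called) and 6 and 5 in Ki67-positive cells (37%). With library sizes in place of TMM factors the split was 3 higher and 20 lower in Ki67-negative cells (40% of all genes called) and 5 and 5 in Ki67-positive cells (32.3%), and with DESeq2 it was 4 and 4 in Ki67-negative cells (21.7%). Every gene called higher in the main test belonged to the immunoproteasome set or was Psme2b. Psmb9 differed by 0.72 (SE 0.18, edgeR adjusted p = 0.00664) and 0.86 (SE 0.18, adjusted p = 0.00246), Psmb8 by 0.51 (adjusted p = 0.0209) and 0.72 (adjusted p = 0.00329), and Psme1 by 0.44 (adjusted p = 0.0137) and 0.59 (adjusted p = 0.00263), in Ki67-negative and Ki67-positive cells. Psme2 differed by 0.32 (adjusted p = 0.065) and 0.47 (adjusted p = 0.0109), and Psmb10 by 0.18 and 0.36 (adjusted p = 0.357 and 0.07). None of the 31 constitutive subunits was called higher. Those called lower in Ki67-negative cells were 7 genes of the 19S particle, led by Psmd6, a lid subunit (-0.56, adjusted p = 0.0104), and Psmc4, an ATPase (-0.54, adjusted p = 0.007), and 1 core gene, Psmb3, beside the base chaperone Psmd9 (-0.49, adjusted p = 0.036) and the nuclear activator Psme3. In Ki67-positive cells the constitutive subunits called lower were Psmd1, the large scaffold of the base (-0.44, adjusted p = 0.0227), and Psmd3, a lid subunit (-0.27, adjusted p = 0.0257), beside Psme3 (-0.36, adjusted p = 0.0109).

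The header code moved with part of this comparison. Between the libraries that share a code (PND8 replicate 2 and repopulation replicate 1), the median log2 difference of the 5 immunoproteasome genes was 0.15 in Ki67-negative and 0.47 in Ki67-positive cells, and that of the 31 constitutive subunits was -0.42 and -0.24. In those pairs Psmb9 differed by 0.43 and 0.71, Psmb8 by 0.15 and 0.53 and Psme1 by 0.18 and 0.47. With the code as a term in the edgeR fit (8 libraries, 42.5% of all genes called in Ki67-negative and 34.2% in Ki67-positive cells) Psmb9 stayed higher in both sorts (0.51, adjusted p = 0.016, and 0.62, adjusted p = 0.00824). Psmb8 and Psme1 were then called in Ki67-positive cells (0.43, adjusted p = 0.0139, and 0.40, adjusted p = 0.00793) but not in Ki67-negative cells (0.24, adjusted p = 0.117, and 0.25, adjusted p = 0.0558), and Psme2 was called in neither. In that fit 23 members were lower in Ki67-negative and 15 in Ki67-positive repopulation cells, among them Psmb6 in both (-0.61 and -0.45). In the fit without the code, the calls of Psmb8 and Psme1 in Ki67-negative cells were also lost without PND8 Ki67-negative replicate 1 (0.27 for both, adjusted p = 0.138 and 0.0862), the library in which Psmb8, Psmb9 and Psmb10 were lowest of all, and without repopulation Ki67-negative replicate 2 (0.40 and 0.35, adjusted p = 0.135 and 0.0959), and that of Psmb8 with library sizes only (0.41, adjusted p = 0.0592). Leaving out repopulation Ki67-negative replicate 1 left 5 called members, without Psmd6 (-0.36, adjusted p = 0.142) and Psmc4 (-0.34, adjusted p = 0.107), and without PND8 Ki67-positive replicate 2 there were 9. In Ki67-positive cells 5 members were called without PND8 Ki67-positive replicate 1, 4 without PND8 Ki67-positive replicate 2 and 4 without repopulation Ki67-positive replicate 1. The last of these ended the calls of Psmd1 (-0.27, adjusted p = 0.214), Psme3 (-0.32, adjusted p = 0.0894) and Psmd3 (-0.23, adjusted p = 0.164), as did leaving out PND8 Ki67-positive replicate 2 (-0.31, -0.37 and -0.30, adjusted p = 0.182, 0.0522 and 0.0657). The call of Psme2 in Ki67-positive cells was lost without PND8 Ki67-positive replicate 1 (0.35, adjusted p = 0.135) and without repopulation Ki67-positive replicate 2 (0.37, adjusted p = 0.0992). That of Psmd9 was lost with DESeq2 (-0.46, adjusted p = 0.109) and without PND8 Ki67-negative replicate 2 (-0.25, adjusted p = 0.315), among others.

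**Figure D3:**
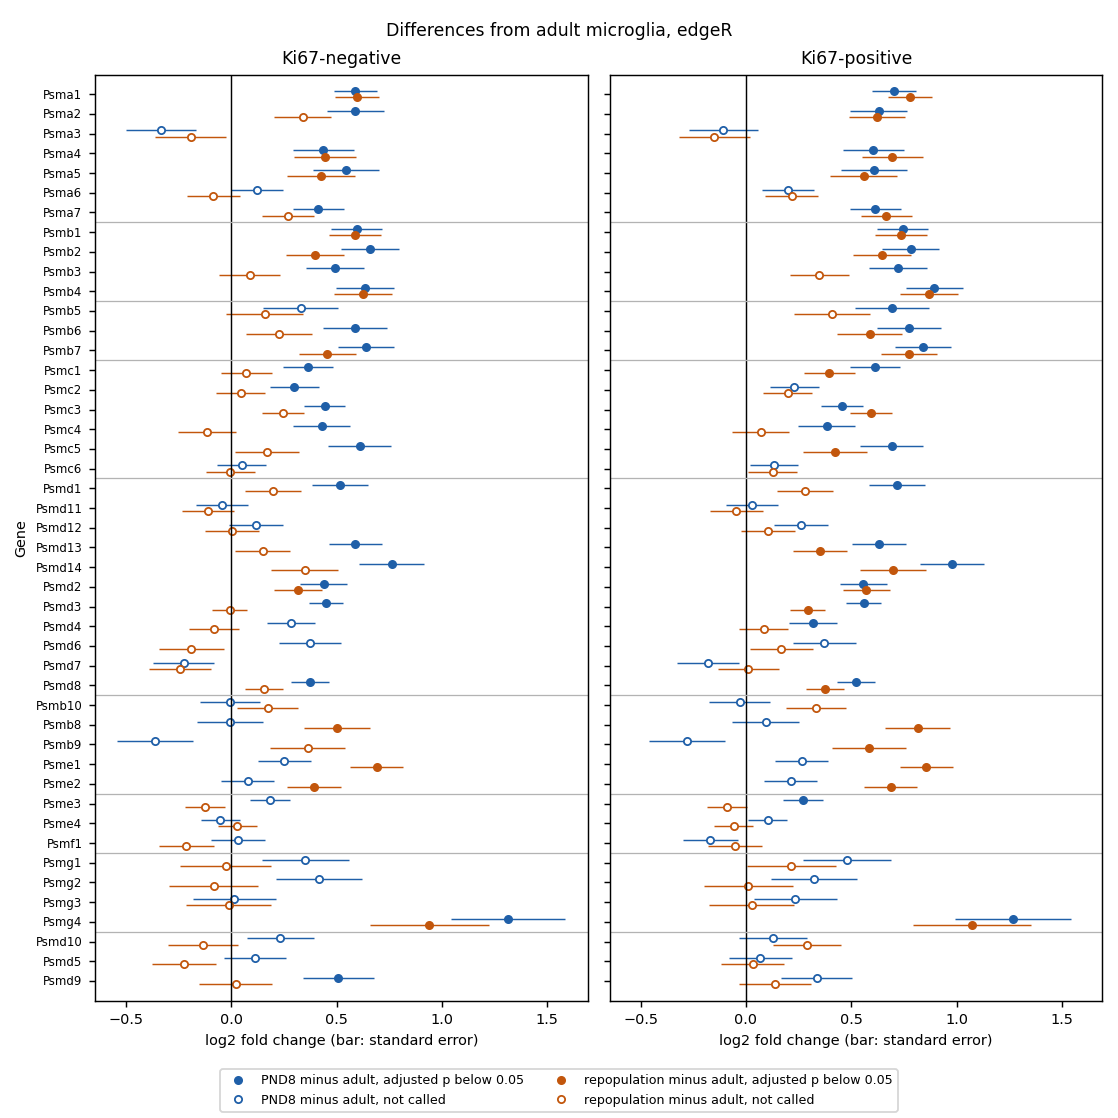
Log2 fold change with its standard error for 46 proteasome genes in the comparisons of each PND8 and repopulation group with adult, with genes ordered by role and called genes (edgeR adjusted p under 0.05) drawn filled. Most constitutive genes lie right of 0 for PND8, and Psmb8, Psme1 and Psme2 are filled for repopulation only.

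The balance between each inducible subunit and the one it replaces can be read within a library as a ratio of CPM per kilobase of transcript, a scale on which different genes may be compared. The log2 ratio of Psmb8 to Psmb5 was 1.37 and 1.15 in adult, 0.87 and 0.96 in PND8 Ki67-negative, 0.64 and 0.68 in PND8 Ki67-positive, 1.63 and 1.58 in repopulation Ki67-negative and 1.62 and 1.70 in repopulation Ki67-positive libraries. All PND8 libraries lay below adult and all repopulation libraries above it, so that the linear ratio ran from 1.56 at PND8 to 3.25 in repopulation. The log2 ratio of Psmb9 to Psmb6 was 0.14 and 0.17 in adult, -0.96 and -0.69 in PND8 Ki67-negative, -0.93 and -0.86 in PND8 Ki67-positive, 0.47 and 0.12 in repopulation Ki67-negative and 0.19 and 0.13 in repopulation Ki67-positive libraries. Here PND8 stood apart below, and the range of the repopulation libraries spanned the adult values, with group means of 0.30 ± 0.24 and 0.16 ± 0.04 (SD, n = 2) next to 0.16 ± 0.02 in adult.

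The log2 ratio of Psmb10 to Psmb7 was 0.08 and 0.09 in adult, -0.71 and -0.44 in PND8 Ki67-negative, -0.82 and -0.75 in PND8 Ki67-positive, -0.12 and -0.27 in repopulation Ki67-negative and -0.31 and -0.39 in repopulation Ki67-positive libraries. For this pair every other library lay below adult, with repopulation between adult and PND8. The pairs therefore shared the position of PND8 below adult and differed in where repopulation stood: above adult for Psmb8 to Psmb5, around it for Psmb9 to Psmb6 and below it for Psmb10 to Psmb7. The ratios are given as a description and were not tested. Partners differ in transcript length: Psmb8 has 1215 bases and Psmb5 866, and Psmb10 has 1260 and Psmb7 959. For the pair of Psmb9 (798) and Psmb6 (1028) the order is the other way. Differences from adult moved with length, as given below, and the counts were capped per position. The part of either in the ratios was not tested.

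**Figure D4:**
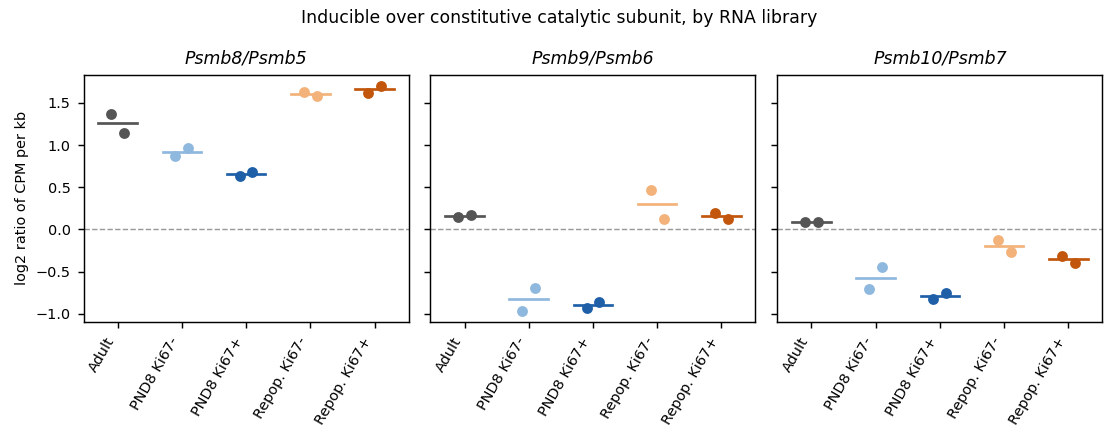
Log2 ratio of CPM per kilobase of each inducible catalytic subunit to the constitutive subunit it replaces, by group, with 1 point per library and a bar at the group mean. In all 3 pairs the 4 PND8 libraries lie below both adult libraries, and for Psmb8 to Psmb5 the 4 repopulation libraries lie above them.

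Sorting by Ki67 moved no member past the test in the main fit, which left out the header code. At PND8 0 of 49 members were called between Ki67-positive and Ki67-negative cells, where 5.9% of all genes were called (2.75% higher and 3.15% lower), and in repopulation 0 of 49, where 2.74% were (1.87% higher and 0.867% lower). At an unadjusted p under 0.05 it was 2 and 13 members, and DESeq2 also called 0 in both. The test of whether the Ki67 difference itself changed between PND8 and repopulation called 0 of 49 members with edgeR and with DESeq2 (edgeR called 0% of all genes), and 2 members had an unadjusted p under 0.05. The differences were small and mostly of one sign: 37 of 49 members were higher in Ki67-positive cells at PND8 and 47 of 49 in repopulation, with medians of 0.12 and 0.25 over the constitutive subunits (all genes -0.03 and -0.00) and of 0.08 and 0.22 over the immunoproteasome set. The members share the same libraries, and the share of all genes with a higher value is not given here. The largest of the catalytic subunits were Psmb5 at PND8 (0.36, edgeR adjusted p = 0.265) and Psmb6 in repopulation (0.36, adjusted p = 0.272). Ki67-positive and Ki67-negative libraries of the same replicate shared a header code, so the difference can be taken within each code: the constitutive median came to 0.21 and 0.07 in the PND8 pairs and to 0.24 and 0.25 in the repopulation pairs. The immunoproteasome median came to 0.18 and -0.10 in the PND8 pairs, which differ in sign, and to 0.19 and 0.30 in the repopulation pairs. With the code in the edgeR fit, 7 members were called higher in Ki67-positive repopulation cells, where 8.21% of all genes were called: Psma7 (0.40), Psmb7 (0.32), Psmc1 (0.33), Psmc3 (0.34), Psmd3 (0.30), Psmd6 (0.35) and Psmd14 (0.35). At PND8 that fit called 1 member, Psmc3ip, which was lower in Ki67-positive cells, where 13.4% of all genes were called.

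Among the chaperones, Psmg4, which with Psmg3 helps to start the outer ring, had the largest difference from adult of any proteasome gene proper. It stood at 3.70 and 4.03 CPM in adult, 8.42 and 10.7 in PND8 Ki67-negative, 8.04 and 10.6 in PND8 Ki67-positive, 6.87 and 8.08 in repopulation Ki67-negative and 8.21 and 8.06 CPM in repopulation Ki67-positive libraries. Both adult libraries were below all 8 others. The log2 differences from adult were 1.31 (SE 0.27, edgeR adjusted p = 0.00157) and 1.27 (adjusted p = 0.00183) at PND8, and 0.94 (adjusted p = 0.0178) and 1.07 (adjusted p = 0.00698) in repopulation. The call in Ki67-negative repopulation cells was lost without adult replicate 1 (0.88, adjusted p = 0.0928), without adult replicate 2 (1.00, adjusted p = 0.0613) and without repopulation Ki67-negative replicate 2 (0.83, adjusted p = 0.0961). Its partners Psmg1, Psmg2 and Psmg3 were called in none of the comparisons with adult. Of the 3 chaperones of the 19S base, Psmd9 rose in PND8 Ki67-negative cells (0.51), and Psmd5 and Psmd10 passed in no comparison. Of the other regulators, the nuclear activator Psme3 rose in PND8 Ki67-positive cells (0.27), and neither the activator Psme4 nor the inhibitor Psmf1 passed in any comparison.

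The 4 genes outside the general proteasome behaved each in its own way. Psme2b stood at 37.0 and 29.7 CPM in adult, 19.9 and 19.3 in PND8 Ki67-negative, 23.5 and 25.3 in PND8 Ki67-positive, 35.4 and 32.6 in repopulation Ki67-negative and 36.5 and 33.5 CPM in repopulation Ki67-positive libraries. All PND8 libraries were below all others, and its log2 differences from adult at PND8 were -0.77 (edgeR adjusted p = 0.000885) and -0.45 (adjusted p = 0.0195). The latter was -0.28 (adjusted p = 0.212) without adult replicate 1, -0.39 (adjusted p = 0.117) without PND8 Ki67-positive replicate 1, -0.50 (adjusted p = 0.0539) without PND8 Ki67-positive replicate 2 and -0.44 (adjusted p = 0.0572) with DESeq2. As a copy of Psme2 it may share reads with that gene, so both values are uncertain to that extent. Psmc3ip rose by 2.07 (adjusted p = 0.00113) in PND8 Ki67-negative cells, from 1.39 and 2.32 to 7.43 and 8.16 CPM, and by 1.22 (adjusted p = 0.0391) in repopulation Ki67-negative cells. The latter call was lost without adult replicate 1 (0.89, adjusted p = 0.226), adult replicate 2 (1.63, adjusted p = 0.0509), PND8 Ki67-positive replicate 2 (1.22, adjusted p = 0.0512) or repopulation Ki67-negative replicate 2 (0.85, adjusted p = 0.256), and with DESeq2 (1.25, adjusted p = 0.0635). Psma8 lay between 2.71 and 5.94 CPM and passed in no comparison. Psmb11 was the member that failed the filter on low counts, with 1 and 2 counts in the PND8 Ki67-negative libraries, 1 in PND8 Ki67-positive replicate 2 and 0 in the other 7.

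Of 21 genes that work beside the proteasome, 7 were higher and 3 lower in PND8 Ki67-negative cells than in adult (25.4% and 21.4% of all genes), and 9 and 3 in PND8 Ki67-positive cells (25.1% and 24.3%). In repopulation the counts were 5 and 3 in Ki67-negative (21.5% and 17.6% of all genes) and 6 and 3 in Ki67-positive cells (23.9% and 21%), which is near the shares of all genes. Sem1, the smallest subunit of the 19S lid, rose in all 4 comparisons by 0.83 to 1.27, and Pomp, the maturation factor of the core, by 0.74 to 0.98. The call of Sem1 in repopulation Ki67-negative cells was lost without adult replicate 2 (0.70, edgeR adjusted p = 0.0626) and without repopulation Ki67-negative replicate 2 (0.58, adjusted p = 0.0742). Uchl5, a deubiquitinase docked on the 19S particle, rose by 0.92 and 0.95 at PND8. Ddi2, the protease that activates the proteasome transcription factor Nfe2l1, was the partner gene called higher in repopulation than at PND8, by 0.97 in Ki67-negative and by 0.67 in Ki67-positive cells. Of 6 ubiquitin genes, 3 rose in each comparison with adult (among them Rps27a by 0.72 to 0.93), and 0 were called between repopulation and PND8. Rps27a encodes ubiquitin fused to a ribosomal protein.

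More peptide-loading genes and interferon regulators were called higher in repopulation than at PND8. Of 12 genes of MHC class I loading, 7 were higher and 1 lower in repopulation Ki67-negative cells than in adult, and 8 and 0 in Ki67-positive cells, next to 21.5% and 23.9% of all genes higher. At PND8 it was 1 higher and 3 lower in Ki67-negative and 2 higher and 3 lower in Ki67-positive cells, where 25.4% and 25.1% of all genes were higher and 21.4% and 24.3% lower, so these counts were near or below the shares of all genes. Nlrc5, the transactivator of class I genes, rose by 2.71 and 2.35 in repopulation. Tap1, the gene that faces Psmb9 across the stretch printed above, rose by 1.26 and 1.28 in repopulation (edgeR adjusted p = 2.16e-05 and 1.46e-05) and by 0.41 and 0.47 at PND8 (adjusted p = 0.0367 and 0.0196). Thus Tap1 was called higher at PND8 in both sorts while its neighbour Psmb9 had -0.36 and -0.28. The call of Tap1 in PND8 Ki67-negative cells was lost without PND8 Ki67-negative replicate 2 (0.07, adjusted p = 0.656), without adult replicate 1 (0.43, adjusted p = 0.12) and without adult replicate 2 (0.39, adjusted p = 0.151), and that in PND8 Ki67-positive cells without adult replicate 1 (0.48, adjusted p = 0.0774), adult replicate 2 (0.45, adjusted p = 0.0975) or PND8 Ki67-positive replicate 2 (0.40, adjusted p = 0.112). The class I heavy chain H2-D1 rose by 0.75 and 0.76 in repopulation. Of 7 interferon regulators, 4 were higher and 1 lower in each repopulation comparison with adult, among them Irf7, which rose by 3.20 and 3.11, and Stat2, which rose by 1.61 and 1.60. At PND8 0 were higher and 2 lower in Ki67-negative cells and 1 higher and 3 lower in Ki67-positive cells, among them Irf8 in Ki67-negative cells (-0.39) and Irf1 in Ki67-positive cells (-0.71). Between repopulation and PND8 6 of 7 were called higher in each sort and 0 lower, as were 8 and 9 of the 12 loading genes, next to 18% and 16.7% of all genes higher.

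Measured quantities that moved with these results were cell markers and transcript length. The border macrophage sum, most of it Mrc1, was highest at PND8, and the monocyte or neutrophil sum was highest in adult libraries. The astrocyte sum was highest in Ki67-negative repopulation libraries and apart between PND8 replicates. The ranges are given above, and the part of these markers in the differences of proteasome genes was not tested. Shorter transcripts had higher log2 differences from adult: Spearman's rho between length and log2 difference was -0.21, -0.18, -0.13 and -0.20 across all 12230 genes in PND8 Ki67-negative, PND8 Ki67-positive, repopulation Ki67-negative and repopulation Ki67-positive cells, and -0.46, -0.55, -0.43 and -0.49 across the 31 constitutive subunits. For the Ki67 sort, rho was 0.05 at PND8 and -0.21 in repopulation across all genes, and -0.23 and -0.29 across the constitutive subunits. For repopulation minus PND8 in Ki67-negative and Ki67-positive cells, rho was 0.12 and -0.02 across all genes, and 0.04 and 0.05 across these subunits. For the change of the Ki67 difference between settings, it was -0.28 across all genes and 0.01 across these subunits. These points share the same libraries, and the part of length in the result was not tested.

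Most promoters of proteasome genes carried H3K27ac in each group that had H3K27ac libraries, as did most tested genes. A gene was taken as marked where a peak or region of the authors overlapped its start site with 1 kb on each side. H3K27ac lay at 42 to 48 of the 50 genes in the 12 libraries, next to 41.3 to 51.1% of all genes of the count table and 69.5 to 84.8% of the 12230 tested genes, and at 41 genes in every library. H3K4me3 lay at 47 of 50 in both adult libraries (90.4 and 90.6% of tested genes) and open chromatin at 46 or 47 (88.3 to 90.8% of tested genes). For H3K4me3 and open chromatin the counts were near the shares of tested genes. Nothing about the members is read from the counts of any mark. Rpb2 lay at 40 and 28 genes in the adult libraries and at 44 in the PND8 library (51.7 to 80.4% of tested genes), with an order that follows the number of peaks called, 14550, 10544 and 31602. Per the file headers, the PND8 list was called against an H3K27ac input although the labels name an Rpb2 input for that library, and the part of this in its numbers was not tested. All 5 immunoproteasome genes had H3K27ac in all 12 libraries, H3K4me3 in both and open chromatin in all 3, so the presence of a region did not separate PND8 from repopulation. The 2 genes with no peak in any list were Psmb11 and Psme2b. Psma8 had H3K27ac in 4 libraries and H3K4me3 in both. Psmc1, an ATPase of the base, had H3K27ac in 1 of 12, but the start used by the count table (100112331 on chromosome 12) lies 2129 bp from the RefSeq start (100110202).

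The tag count of the H3K27ac region at each start, ranked among all regions at start sites of the same library, was mostly higher for the inducible than for the constitutive genes. Regions differ in width and the count is not divided by it, so the rank mixes width with strength. In adult replicate 1 the regions of Psmb8, Psmb9 and Psmb10 were 1750, 1760 and 1692 bp wide. Those of Psmb5, Psmb6 and Psmb7 were 1756, 929 and 843 bp wide. The median percentile of the 5 immunoproteasome genes lay between 65.9 and 84.7 in the 12 libraries, and that of the constitutive subunits between 44.9 and 52.3. Psme2 lay between the percentiles 75.2 and 87.2, Psmb9 between 66.6 and 89.8, Psmb8 between 60.3 and 84.7, Psmb10 between 53.9 and 81.6 and Psme1 between 58.5 and 71.8. Their constitutive partners were lower: Psmb5 between 33.4 and 61.2, Psmb6 between 21.0 and 50.6 and Psmb7 between 14.5 and 28.7. Constitutive genes were spread widely, from Psma7, an outer ring subunit, between 78.4 and 94.4 to Psmd2 between 1.76 and 28.2. The same sets had another order in open chromatin, where the immunoproteasome medians were 37.7 to 43.3 and the constitutive medians 60.1 to 62.2, and the immunoproteasome set was again higher for H3K4me3 in adult, at 84.5 and 88.6 against 69.9 and 71.3.

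The ranks of Psmb9 did not follow its RNA across groups. Its H3K27ac percentile was 66.6 and 75.5 in adult, 78.0 and 85.0 in PND8 Ki67-negative, 84.5 and 89.0 in PND8 Ki67-positive and 86.5 and 79.8 in repopulation Ki67-positive libraries. PND8 thus lay above adult in rank, where its RNA at PND8 was at or below adult, and PND8 and repopulation overlapped. Because Psmb9 and Tap1 start 226 bp apart, 1 region can serve both. Psmd2 lay at 1.76 and 1.79 in adult, between 11.8 and 21.9 in the 4 PND8 libraries and at 26.4 and 28.2 in repopulation, above adult in each, as was its RNA. Both of its adult regions were 500 bp wide with tag counts of 13.1 and 13.7, near the bottom of their lists. Psmb10 lay at 72.9 to 81.6 in PND8, above its 71.5 and 66.4 in repopulation Ki67-positive libraries. Its RNA in repopulation Ki67-positive libraries was above all PND8 libraries. Ranks come from lists of different lengths (19572 to 30539 regions), with the lowest number in adult replicate 1, so they show no change by themselves, and the differences were not tested.

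**Figure D5:**
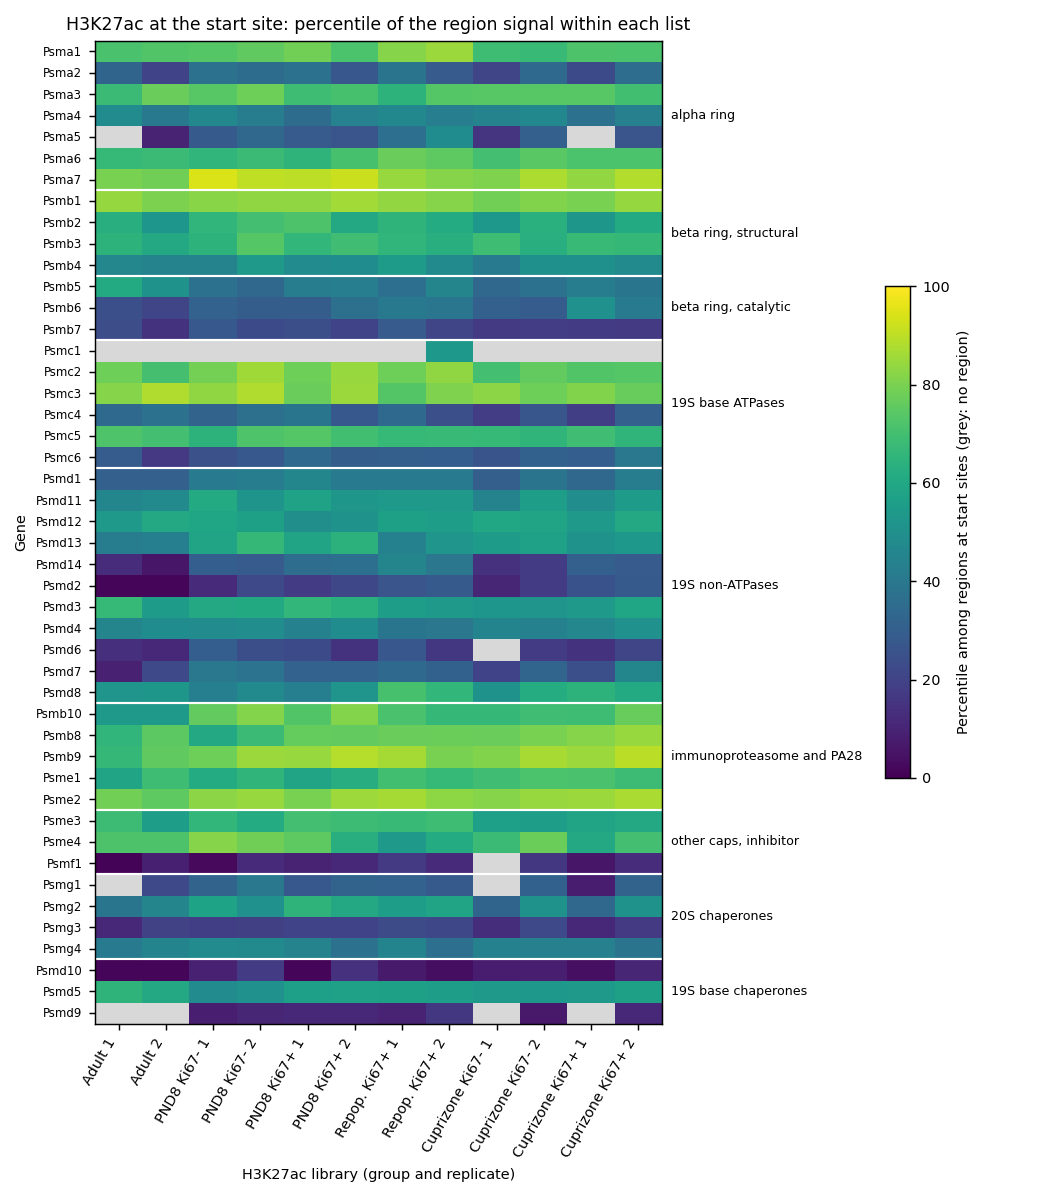
Percentile of the H3K27ac region at the start site of each of 46 proteasome genes among all regions at start sites of the same library, in 12 libraries, with grey where no region was called. The 5 immunoproteasome rows are above percentile 50 in every library, and constitutive rows range from Psmd2 near the bottom to Psma7 and Psmb1 near the top.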

How the data were processed

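RNA was sequenced in 10 libraries and peaks were called in 20, and groups follow the labels alone. The authors' counts were made by HOMER from mm10 exons, each gene by 1 transcript, unadjusted and capped at 3 tags per position, per the file headers, a cap that can hold down short, abundant transcripts. TPM values, which the authors also made with HOMER per the file headers, served only for an alternative. The submitters' processing notes also name STAR 2.7.0f, Bowtie2 2.3.4.1, HOMER 4.11 and DESeq2. Per the labels, RNA was polyA-selected and stranded; the strand setting of the counting is not given in the sources used here. The signal of a peak is its tag count per 1e+07 tags, and its score is the peak caller's own, both made by the authors per library, per the file headers. Both were used only to rank or filter peaks within a list.

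Counts were fitted with edgeR 4.0.16 in R 4.3.3 (TMM, filterByExpr by group, quasi-likelihood test, all 10 libraries and 5 groups in 1 fit, Benjamini-Hochberg within each of 9 comparisons, threshold 0.05); the code was tested on simulated data. DESeq2 1.42.0, limma 3.58.1 and the other alternatives appear in the closing section. In every sentence with an adjusted p, the tool is edgeR unless another is named. Errors are the SE of a fitted value or the SD of 2 libraries. Values are given by library for the 5 immunoproteasome genes, the 3 catalytic subunits they replace and Mki67, and otherwise up to 3 called genes with the largest rise or fall were named per comparison and list; further genes were named after their values were seen. Some genes that this rule names are counted in their lists but not reported here by name. The members and gene lists were chosen with earlier results of these data known. The 16 input samples served only the authors' peak calls.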

Additional observations from a re-analysis of the deposited data

Results flagged for a closer look

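Members were marked here where every PND8 library lay on one side of both adult libraries and every repopulation library on the other side, in Ki67-negative and Ki67-positive cells alike. The share of all genes that meet this rule is not given here. The adjusted p values below come from the libraries the rule used, so they add no support to it. Psmb9 was below adult in all 4 PND8 libraries and above it in all 4 repopulation libraries, with a log2 difference between repopulation and PND8 of 0.72 in Ki67-negative (edgeR adjusted p = 0.00664) and 0.86 in Ki67-positive cells (adjusted p = 0.00246). Its highest PND8 library (36.0 CPM) was close to the lowest adult library (37.0 CPM). The differences of PND8 from adult did not pass (-0.36 and -0.28, edgeR adjusted p = 0.118 and 0.218). Psma8, a testis form of an outer ring subunit, was above adult in all 4 PND8 libraries (5.40 to 5.94 against 4.40 and 5.25 CPM) and below it in all 4 repopulation libraries (2.71 to 3.82 CPM), with log2 differences of -0.85 (adjusted p = 0.0549) and -0.63 (adjusted p = 0.164), neither of which passed the threshold.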

How the results depend on the processing

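The 9 counts of called members kept within 1.5 times of their value in 147 of 176 alternative fits. Of these fits, 90 left out 1 library, often from a group outside the comparison, so the total says little about stability. Asking for a fold of at least 2 (glmTreat) left 1 member in PND8 Ki67-negative against adult and 0 in PND8 Ki67-positive, in both repopulation groups against adult and in both comparisons of repopulation with PND8, so the differences reported are mostly below that fold. Repopulation minus PND8 in Ki67-negative cells (14 members) gave 8 with DESeq2, 23 with library sizes only, 7 with only the groups compared, 22 with the replicate number as a block and 25 with the header code. In Ki67-positive cells (8 members) it gave 14 with limma on log2(TPM + 1), 13 on log2(TPM + 0.1), 13 with the block and 19 with the header code. The Ki67 comparison of repopulation (0 members) gave 3 with the block and 7 with the header code, and that of PND8 gave 1 with the header code. The cause of these changes was not tested. Library sizes only moved the median of all genes between repopulation and PND8 Ki67-negative cells to -0.13.

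Leaving out 1 library at a time gave 0 to 1 members (Ki67 at PND8), 0 to 3 (Ki67 in repopulation), 4 to 17 (repopulation Ki67-negative against adult), 5 to 20 and 4 to 11 (repopulation minus PND8, Ki67-negative and Ki67-positive), 18 to 30 and 21 to 29 (PND8 against adult) and 16 to 26 (repopulation Ki67-positive against adult), with fewer samples in each fit. For 113 named results, 1990 of 2182 alternative values kept direction and call, 192 kept the direction without the call, and 0 changed direction. Of the 2182 values, 1130 came from leaving out 1 library, often from a group outside the comparison, where the difference could hardly move. The totals therefore say little about how stable the results are. The pairing by replicate number was checked by correlating deviations from group means: 0.34 between the PND8 sorts and 0.26 between the repopulation sorts, which share header codes within a number, and -0.01 to 0.10 between all other groups, so the numbers were not taken to pair samples across settings. All 45 alternative values of the exchange ratios moved by less than the spread between replicates, but they could not have done otherwise. For 15 of them the deposited TPM replaced CPM per kilobase, which leaves a ratio within a library the same apart from rounding. In the other 30, 1 library of a group was left out, which always moves the group mean by less than its SD. Whether the ratios depend on the processing is therefore not shown by these values.

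Of the counts of marked promoters, 62 of 80 alternative values stayed within 1.5 times. With the higher-scoring part of each list alone, H3K27ac lay at 26 and 26 members in adult, 28 and 26 in PND8 Ki67-negative, 31 in PND8 Ki67-positive replicate 1, 23 in cuprizone Ki67-positive replicate 1 and 31 in repopulation replicate 2, and Rpb2 at 24 and 14 in adult. At the start site alone, Rpb2 lay at 23 (adult replicate 1) and 29 (PND8) and open chromatin at 28, 29 and 30 members. An overlap of at least 200 bp gave 0 for Rpb2 of PND8 and for all 3 open chromatin lists, whose median peak widths (112 to 190 bp) are below it. With 2 libraries a group, a difference that missed the threshold is not shown to be absent.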
